A study of Mus musculus with 9 samples.

Results

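The insulin-like growth factor (IGF) binding proteins, the pappalysin proteases that cut them, and the stanniocalcins that hold the proteases back were examined in MC3T3 osteoblasts and in endothelial cells (ECs). The genes were taken by symbol, Igfbp2, Igfbp3, Igfbp4, Igfbp5, Igfbp6, Igfbp7, Pappa, Pappa2, Stc1, and Stc2, and all 10 were found among the 50686 genes of the count table. The set was chosen by its measured log2 fold changes between SB216763-treated and control osteoblasts, with Pappa2 and Igfbp2 among the largest decreases. That difference is therefore given for these genes as a description, without a p-value. RNA-Seq was performed on 3 groups of 3 libraries. The first was MC3T3-E1 cells labeled as control, the second was MC3T3-E1 cells given 10 μM SB216763 for 14 days, and the third was mouse pulmonary ECs, labeled as having no treatment. MC3T3-E1 is a mouse osteoblast line, so both osteoblast groups come from 1 line, and SB216763 inhibits the kinase GSK3. The ECs were isolated by FACS according to the study, and no strain or age is given in the labels. The labels repeat the treatment protocol on every sample, so groups were taken from the sample titles. The time in culture and any vehicle of the control cells are not given in the sources used here. No label says that libraries of a group came from separate cultures or animals, so p-values measure the spread between these libraries only, which may be technical.

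IGF1 and IGF2 circulate and lie in tissue bound to IGF binding proteins, which keep them from the IGF1 receptor. Pappalysins are secreted metalloproteases that cut certain binding proteins and free the bound IGF. PAPPA is known for cutting IGFBP4, and PAPPA2 for cutting IGFBP5 and IGFBP3. Stanniocalcins bind pappalysins and block them. In bone, osteoblasts secrete IGFs together with binding proteins, and part of both is stored in the matrix.

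Counts were scaled with the TMM method to CPM, the share of a gene in its library. The threshold required a log2 fold change of 2 or more in either direction with an adjusted p (FDR) under 0.01. All 10 genes were among the 15531 tested, but 6 passed the filter on low counts only through the groups where they are high, Igfbp2 through the controls, Igfbp5 and Pappa through the osteoblasts, and Igfbp3, Stc1, and Stc2 through ECs. Such genes had to differ between a group through which they passed and one through which they did not. No p-value is given for these 6 genes, and their fold changes are descriptions. Depth ran from 30990107 to 68946333 counts per library. A level of 3 counts was taken as the smallest that can be told from 0. It corresponded to between 0.0435 and 0.0968 CPM by total counts, before the TMM scaling used for the gene values. This level and the intervals given here cover counting error only. All 6 osteoblast markers (Runx2, Sp7, Alpl, Col1a1, Col1a2, and Ibsp) exceeded 1 CPM in every control library, and they summed to 43916 to 59344 CPM there, to 8066 to 8338 CPM after treatment, and to 45.1 to 64.5 CPM in ECs. The 6 endothelial markers (Pecam1, Cdh5, Kdr, Tek, Tie1, and Emcn) summed to 2.06 to 2.78 CPM in the controls, 2.11 to 2.64 CPM after treatment, and 6079 to 6230 CPM in ECs. Thus the sum of these 6 endothelial markers was not above the control level in the treated libraries. The study itself reports induced endothelial markers in treated cells. By PCR it reports CD34 and eNOS, which are outside these 6, and CD31 (Pecam1) and VE-cadherin (Cdh5), which are among them. By flow cytometry it reports CD31 and VE-cadherin on cells positive for a reporter driven by the promoter of Flk1 (Kdr). Here Pecam1 had means of 0.759 CPM in control and 0.788 CPM in treated libraries. Cdh5 had 0.585 and 0.599 CPM, and Kdr 0.508 and 0.420 CPM. What lies behind this difference from the study was not tested. The 8 mural and fibroblast markers were Acta2, Myh11, Rgs5, Cspg4, Pdgfrb, Pdgfra, Dcn, and Lum. They summed to 3446 to 3618 CPM in control, 1232 to 1278 CPM in treated, and at most 42.6 CPM in EC libraries. They did not move as a class after treatment. Acta2 fell from a mean of 2915 to 144 CPM, while Pdgfrb rose from 254 to 746 CPM. Of the 7 tested, 3 were lower and 3 higher at an adjusted p under 0.01 with any fold (edgeR). Of all genes, 32.0% and 32.9% were. Leukocyte markers summed to 26.0 to 27.7 CPM in control, 8.31 to 9.88 CPM in treated, and 56.3 to 58.4 CPM in EC libraries. Nearly all of this came from Cd68 and Lyz2, with Cd3e at 0 counts. Epithelial markers summed to at most 0.278 CPM in any library. The part of these shifts in the differences below was not tested. Libraries differed by gene length within a group. In control replicate 2, genes with over 8 kb of exon lay at a median of -0.10 on the log2 scale from the other 2 controls, and those with under 2 kb at 0.10. Genes under 2 kb, which include Igfbp2, Igfbp6, and Igfbp7, lay at 0.11 in treated replicate 2 and -0.11 in treated replicate 3.

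Promoter sequences are shown for the genes with the largest decreases and increases in the treated osteoblasts, to set them beside the values that follow. RefSeq promoters (GRCm38.p6, 250 bases before to 50 after the start site) were matched for 8 of the 10 genes, with 2 windows for Igfbp2. Capitals mark CpG dinucleotides, and each sequence runs 5′ to 3′ on the strand of its gene. The windows are chr1:158958126-158958425 on the minus strand for Pappa2, chr1:72824230-72824529 on the plus strand for Igfbp2, chr1:72874816-72875115 on the minus strand for Igfbp5, and chr11:99040994-99041293 on the plus strand for Igfbp4.
Pappa2: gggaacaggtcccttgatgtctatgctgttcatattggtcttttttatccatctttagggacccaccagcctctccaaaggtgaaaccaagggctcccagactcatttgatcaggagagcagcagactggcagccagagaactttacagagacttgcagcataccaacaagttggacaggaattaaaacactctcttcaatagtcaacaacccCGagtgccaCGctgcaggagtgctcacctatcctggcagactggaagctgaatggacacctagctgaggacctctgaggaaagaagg
Igfbp2: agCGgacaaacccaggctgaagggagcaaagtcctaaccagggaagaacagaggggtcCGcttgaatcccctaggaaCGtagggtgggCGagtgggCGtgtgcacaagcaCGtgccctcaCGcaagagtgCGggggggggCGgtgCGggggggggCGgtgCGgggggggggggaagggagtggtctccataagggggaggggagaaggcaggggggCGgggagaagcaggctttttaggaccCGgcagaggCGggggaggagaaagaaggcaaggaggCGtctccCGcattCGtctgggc
Igfbp5: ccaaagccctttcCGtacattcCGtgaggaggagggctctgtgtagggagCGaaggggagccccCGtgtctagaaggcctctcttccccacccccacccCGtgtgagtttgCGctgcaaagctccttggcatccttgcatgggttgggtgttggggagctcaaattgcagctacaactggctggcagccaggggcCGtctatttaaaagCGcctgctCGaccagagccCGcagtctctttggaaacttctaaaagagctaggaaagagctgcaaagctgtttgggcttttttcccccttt
Igfbp4: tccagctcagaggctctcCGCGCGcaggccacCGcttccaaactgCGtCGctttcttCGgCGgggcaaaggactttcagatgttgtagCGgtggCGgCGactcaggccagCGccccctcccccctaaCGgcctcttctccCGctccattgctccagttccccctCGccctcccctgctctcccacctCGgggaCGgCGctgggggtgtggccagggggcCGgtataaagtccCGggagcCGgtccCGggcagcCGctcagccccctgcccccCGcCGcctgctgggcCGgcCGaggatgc
The Pappa2 window held 2 CpG dinucleotides at 49.7% GC and the Igfbp2 window shown 18 at 67.0% GC (14 at 57.3% in its other window), although both genes were far lower after treatment. The Igfbp5 and Igfbp4 windows held 10 and 27, and the median of all 32817 promoter windows was 7. The TCF/LEF core CTTTGA, read on both strands, was in none of the 9 windows of these genes and in 16.0% of all windows. The SMAD GC-rich element GGCGCC (11.9% of all windows) was not in them either. The RUNX core TGTGGT (16.8% of all) was found in the Igfbp3 window, and the TATA box TATAAA (13.6% of all) in the Igfbp4 window, 28 bases before the start site, and on the opposite strand of the Igfbp6 window. These are matches of letters and were not tested for binding. The GENCODE model of Pappa2 reaches farther upstream than the RefSeq start site, and which start site the cells used cannot be read from gene counts.

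Pappa2 went from one of the highest levels by CPM, which is not corrected for length, in the control osteoblasts to a low level. It lies on chromosome 1, 158711727 to 158980490 on the minus strand (GENCODE M21, GRCm38). It shares 310 exon bases with 1600012P17Rik, a noncoding gene on the same strand with 64 counts over the 9 libraries. It was at 2116, 1644, and 2128 CPM in the control libraries, 4.99, 5.06, and 5.26 CPM in the treated libraries, and 2.22, 2.77, and 2.57 CPM in ECs. The groups did not overlap, and the lowest control value was that of replicate 2, the library in which long transcripts were lower. By mean CPM, Pappa2 ranked 33 of all genes in the controls and 9893 after treatment. The log2 fold change after treatment was -8.59 (standard error 0.12), a 384-fold difference, which ranked 1 of 450 among lower genes with 10 CPM or more in the higher group. Without control replicate 2 it was -8.71. ECs lay below the treated osteoblasts, with a difference of -1.03 (standard error 0.14) on the log2 scale.

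Pappa, the other pappalysin, moved far less in the osteoblasts and was nearly undetected in ECs. This gene (chromosome 4, 65124174 to 65357509) was at 30.5, 24.1, and 33.2 CPM in the controls and 15.0, 14.2, and 15.6 CPM after treatment. All treated libraries lay below all controls, by -0.96 on the log2 scale (standard error 0.10), short of the fold threshold. The EC libraries had 0, 1, and 0 counts. Over the pooled counts, control osteoblasts exceeded ECs by a ratio of 3427 (95% counting interval 615 to 135392). The fitted log2 value for ECs against controls, -11.32, was -13.29 without EC replicate 2, the only one with a count, and -9.02 with a prior count of 2. The order of the pappalysins was opposite in the control and treated cells. Per kb of exon, Pappa2 exceeded Pappa 74.4, 73.0, and 68.7 times in the 3 control libraries and was 0.356, 0.381, and 0.361 times Pappa in the treated libraries. No such ratio was taken in ECs, where Pappa was at or under 1 count.

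**Figure D1:**
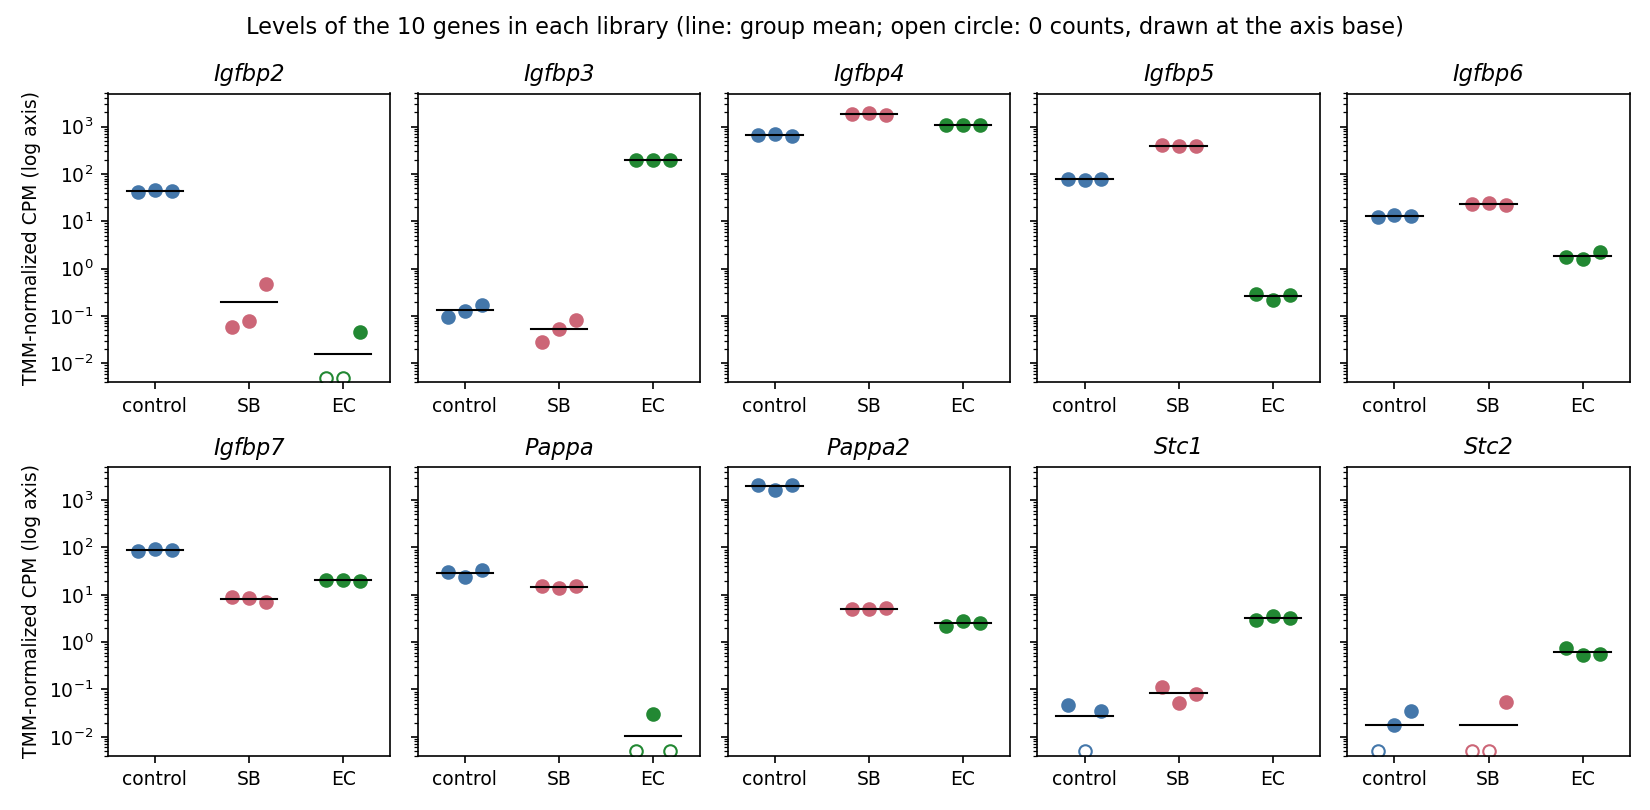
TMM-normalized CPM on a log axis for the 10 genes, with a point per library, 3 libraries in each of the control, SB216763 (SB), and EC groups, and a line at the group mean. Open circles at the axis base are libraries with 0 counts. Pappa2 and Igfbp2 drop in the treated libraries, and Igfbp5 and Igfbp4 are higher there. Igfbp3, Stc1, and Stc2 are highest in ECs, although Stc1 and Stc2 are low there too.

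Of the binding proteins, Igfbp2 and Igfbp7 were lower after treatment. Igfbp2 (chromosome 1, 72824503 to 72852474) encodes a binding protein that can also attach to integrins. It was at 40.9, 45.4, and 42.6 CPM in the controls. The treated libraries had 2, 3, and 17 counts, or 0.0573, 0.0782, and 0.463 CPM, and ECs had 0, 0, and 2 counts. Thus 2 of the 3 treated libraries were at or under the 3 counts that the depth can show, and replicate 3 stood above them. Over pooled counts the controls exceeded the treated libraries by a ratio of 215 (95% counting interval 142 to 343). The fitted log2 fold change was -7.73, ranked 3 of those 450, and it was -9.24 without treated replicate 3. Its standard error of 0.21, taken from the test statistic, understates the counting error.

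Igfbp7 encodes a more distant relative that binds IGF weakly. The gene (chromosome 5, 77349240 to 77408041) shares 85 exon bases with Polr2b on the opposite strand, so a part of its counts is uncertain. It was at 82.8, 93.3, and 86.5 CPM in the controls, 8.80, 8.55, and 7.05 CPM after treatment, and 20.2, 20.9, and 19.8 CPM in ECs. The 3 groups were fully apart and the treated osteoblasts lay below ECs. The log2 fold change after treatment was -3.43 (standard error 0.07). ECs were below the controls by a log2 fold change of -2.11 and above the treated cells by 1.32 (adjusted p = 2.14e-14 and 1.21e-10 in edgeR's quasi-likelihood test). With scaling by library size only, the first of these was -1.99, just short of the fold threshold.

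Igfbp5, Igfbp4, and Igfbp6 had higher values in every treated library than in any control, and of these Igfbp5 alone passed the fold threshold. Igfbp5 (chromosome 1, 72857932 to 72874884), a binding protein that is abundant in bone matrix and a known substrate of PAPPA2, was at 79.7, 74.2, and 77.6 CPM in the controls and 407, 397, and 392 CPM after treatment. ECs were at 0.298, 0.213, and 0.278 CPM, from 13, 7, and 12 counts. The treated libraries were thus 5.16-fold above the controls, or 2.37 on the log2 scale (standard error 0.05), while ECs lay at the opposite end. ECs against controls gave a log2 fold change of -8.16, and ECs against treated cells -10.53.

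Igfbp4 (chromosome 11, 99041244 to 99054392), the classic substrate of PAPPA, was high in every library. It was at 673, 684, and 642 CPM in the controls, 1861, 1928, and 1748 CPM after treatment, and 1071, 1078, and 1100 CPM in ECs. The treated cells were highest and the groups did not overlap. The log2 fold change after treatment was 1.47 (standard error 0.05), short of the fold threshold, and ECs were above the controls by 0.70 and below the treated cells by -0.77 (adjusted p = 3.95e-09 and 1.06e-09, edgeR). Its rank by mean CPM was 191 in the controls and 27 after treatment. Igfbp6 (chromosome 15, 102144362 to 102149511), a binding protein with a preference for IGF2, was at 12.3, 13.5, and 13.0 CPM in the controls, 23.4, 24.2, and 21.6 CPM after treatment, and 1.72, 1.61, and 2.27 CPM in ECs. Its log2 fold change after treatment was 0.84 (standard error 0.08), short of the fold threshold, and -2.78 for ECs against controls (adjusted p = 4.69e-13, edgeR).

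Igfbp3, Stc1, and Stc2 were the genes of this group that ECs expressed and the osteoblasts barely did. Igfbp3 (chromosome 11, 7206086 to 7213923) encodes the main IGF carrier of serum and was at 195, 199, and 198 CPM in ECs. The controls had 6, 7, and 5 counts and the treated libraries 1, 2, and 3 counts. ECs exceeded the controls by 10.62 on the log2 scale, with a ratio of pooled counts of 1610 (95% counting interval 1018 to 2717). The standard error of 0.09, taken from the test statistic, understates this counting error. Between treated and control osteoblasts the ratio of pooled counts was 0.446 with a 95% counting interval of 0.145 to 1.17, so a difference was not detectable at this depth. Stc1 (chromosome 14, 69029238 to 69041804) had 130, 116, and 143 counts in ECs, at most 3 in the controls, and at most 4 after treatment. Stc2 (chromosome 11, 31357307 to 31370074) had 33, 18, and 24 counts in ECs and at most 2 in any osteoblast library. The EC levels were 3.27 ± 0.279 CPM for Stc1 and 0.620 ± 0.118 CPM for Stc2 (SD, n = 3). Both were above the controls in every EC library, with pooled ratios of 119.6 (95% counting interval 46.4 to 441) and 46.1 (12.3 to 388). The treated-to-control ratio of Stc1 was 3.01 with an interval of 0.841 to 13.4, and no fold is given for Stc2, which was under the level of 3 counts in all 6 osteoblast libraries. An antisense model overlaps 229 exon bases of Stc1 and the strand setting of the counting is not given in the sources used here.

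Of the 10 genes, 3 (Pappa2, Igfbp2, and Igfbp7) were lower and 1 (Igfbp5) was higher past the threshold after treatment. Over all genes tested, 5.84% were lower and 3.81% were higher, and since the genes were chosen with this contrast in view, nothing is read from the count. The median log2 fold change of the 9 genes with more than 3 counts in some osteoblast library was -0.96, and that of all genes tested was 0.01. By the spread of libraries, 5 genes had all treated libraries below all controls and 4 above, where 35.9% and 37.3% of all genes did. The former include Igfbp3 and the latter Stc1, whose counting intervals span 1. In ECs against controls, 6 genes were lower and 3 higher, where 9.87% and 13.5% of all genes were, with medians of -2.44 and 0.01. In ECs against treated osteoblasts, 4 were lower and 3 higher, where 10.3% and 15.0% of all genes were, with medians of -0.90 and 0.02. At an adjusted p under 0.01 with any fold, 6 were lower and 4 higher in both EC comparisons, where 37.9% and 39.0% of all genes were against controls and 38.3% and 40.3% against treated cells. The libraries of all 10 genes were fully apart there, where 41.4% and 42.6% of all genes were so lower and higher against controls, and 41.6% and 43.8% against treated cells. These comparisons share libraries with the contrast behind the choice and with each other, and all 3 higher genes entered only through ECs, so nothing is read from these counts. Igfbp4 passed in none of the 3 comparisons. Pappa2 and Igfbp7 passed in the comparisons with controls but not between ECs and treated cells. Igfbp2 passed there on 22 counts against 2 and had no value when only these 2 groups were fitted, where 3 genes were lower. It lost the call without treated replicate 3 (log2 fold change -1.87), without EC replicate 1 (-2.79), and without EC replicate 2 (-2.97), where the value with all libraries was -3.37. As these were bulk samples, fewer cells that express a gene and less RNA per cell cannot be told apart.

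**Figure D2:**
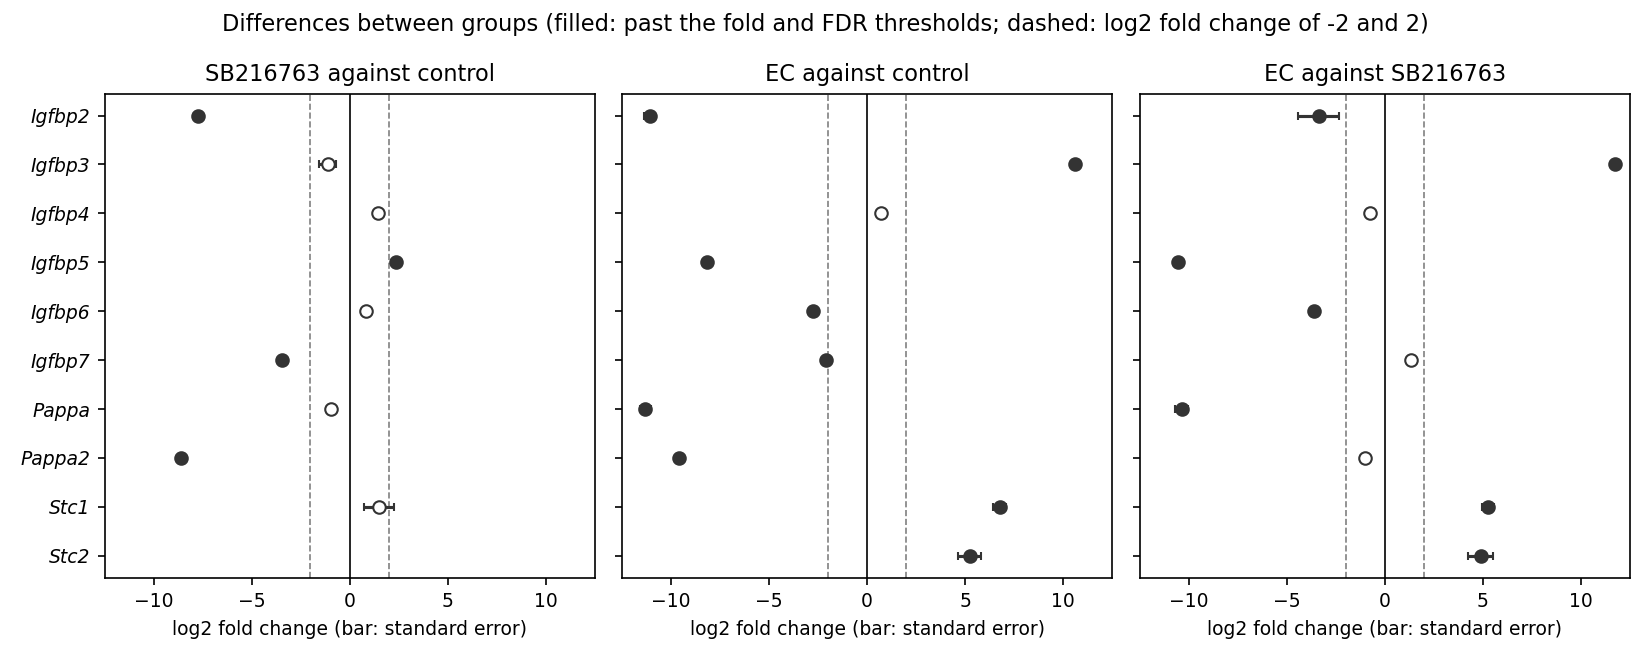
Log2 fold changes with standard errors for the 10 genes in the 3 comparisons, with dashed lines at -2 and 2, and filled points past the fold and FDR thresholds. The bars come from the test statistic and understate counting error for genes at a few counts. Stc2 is left out of the first panel, as both groups were at or under 3 counts. Igfbp5 lies right of 0 in treated against control cells (2.37) and far left in both EC comparisons (-8.16 and -10.53), and Igfbp3 lies far right in both EC comparisons.

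The levels of different genes were compared as CPM per kb of exon. In the controls the order was Pappa2 (191 ± 26.8), Igfbp4 (151 ± 4.88), Igfbp7 (72.4 ± 4.39), Igfbp2 (23.3 ± 1.22), Igfbp5 (12.8 ± 0.462), Igfbp6 (11.6 ± 0.561), and Pappa (2.65 ± 0.420 CPM per kb, SD, n = 3), and the libraries of neighbors in this order did not overlap. Igfbp3, Stc1, and Stc2 were under 0.1 CPM per kb. After treatment Igfbp4 (418 ± 20.6), Igfbp5 (66.3 ± 1.31), and Igfbp6 (20.8 ± 1.19 CPM per kb) came first, and Pappa2 was at 0.495 ± 0.0135, below Pappa at 1.35 ± 0.0624 CPM per kb. In ECs Igfbp4 (245 ± 3.40) was followed by Igfbp3 (62.9 ± 0.610) and Igfbp7 (16.8 ± 0.457 CPM per kb). Stc1, at 0.780 ± 0.0666 CPM per kb, exceeded Pappa2 at 0.245 ± 0.0270 CPM per kb in ECs, and in no osteoblast group did a stanniocalcin exceed a pappalysin.

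Summed over Igfbp2 to Igfbp7, the binding proteins made up 271 ± 8.80 CPM per kb in control, 512 ± 22.9 in treated, and 327 ± 3.78 in EC libraries (SD, n = 3). The sums were 267, 281, and 265 in the control libraries and 518, 531, and 487 CPM per kb in the treated libraries, which did not overlap. With 3 libraries in each group this is a description, without a test. Igfbp4 supplied 55.7% ± 1.14 of the sum in control, 81.6% ± 0.439 in treated, and 75.1% ± 0.253 in EC libraries. The second binding protein differed in each group. It was Igfbp7 in the controls (26.7% ± 0.955), Igfbp5 in the treated cells (13.0% ± 0.498), and Igfbp3 in ECs (19.3% ± 0.172). Igfbp2 went from 8.58% ± 0.254 in the controls to between 0.00600% and 0.0515% in the treated libraries, and Igfbp6 was at 4.29% ± 0.147 in the controls and 4.05% ± 0.0516 after treatment.

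**Figure D3:**
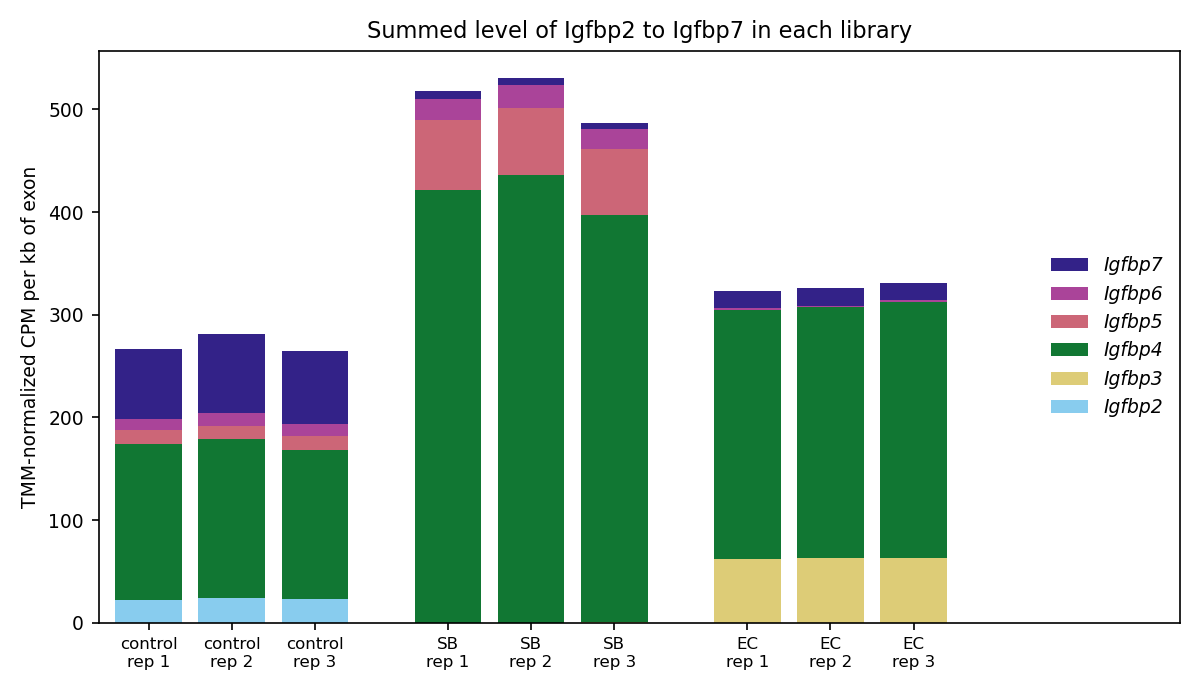
Stacked bars of Igfbp2 to Igfbp7 in each of the 9 libraries, in TMM-normalized CPM per kb of exon, with the vertical axis from 0. Igfbp4 is the tallest part of every bar, and the next is Igfbp7 in the controls, Igfbp5 after SB216763 (SB), and Igfbp3 in ECs.

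The genes were also placed beside their neighbors on the chromosome, a look taken after their values were seen. Igfbp2 and Igfbp5 are adjacent genes that converge on chromosome 1 with 5457 bases between their ends, and they moved in opposite directions after treatment (log2 fold changes of -7.73 and 2.37). Igfbp1, which lies 3539 bases from Igfbp3, had 0 counts in all 6 osteoblast libraries. Astn1, the nearest coding gene to Pappa2 at 19945 bases, went from 16.7 ± 0.806 to 0.0911 ± 0.0322 CPM, a log2 fold change of -7.48 (standard error 0.17). Igfbp4 lies 11285 bases from Tns4, at 0.155 ± 0.0641 CPM or less in every group, and 17054 bases from Top2a, a topoisomerase of dividing cells. Top2a went from 326 ± 26.4 to 28.6 ± 2.60 CPM. Next to Igfbp6, Soat2, a cholesterol-esterifying enzyme gene at 1014 bases, went from 4.82 ± 0.213 to 0.699 ± 0.175 CPM. Neighbors thus went both the same and the opposite way.

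Genes with the most similar pattern were ranked by the root mean square difference of log2 CPM, centered over the 9 libraries. For Pappa2 these were Fndc1, Cdsn, and Thsd4, with differences of 0.63, 0.69, and 0.71. For Igfbp2 they were Pappa2, Thsd4, and Cdsn, with differences of 0.72, 0.79, and 0.84. Pappa2 itself was thus closest to Igfbp2, but the set was chosen with Pappa2 and Igfbp2 among the largest decreases. Their likeness over the same libraries therefore follows in part from the choice. Igfbp2 was also at a few counts in most treated and EC libraries, where the prior count shapes its log2 CPM. Nothing is read from this pairing. Cdsn had 985 ± 9.49 CPM in control, 6.52 ± 0.714 CPM in treated, and 3.59 ± 0.462 CPM in EC libraries. For Igfbp5 the nearest were Plxdc2, Ptges, and Nbl1, with differences of 0.28, 0.32, and 0.37. Ptges, which makes prostaglandin E, had 54.4 ± 1.48 CPM in control, 427 ± 23.1 CPM in treated, and 0.240 ± 0.0936 CPM in EC libraries. The likeness rests on 3 groups of libraries. With Pearson's correlation in its place, 1 of the 3 genes of Pappa2 and 0 of those of Igfbp2 and Igfbp5 came out again.

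The ligands, receptors, and adapters around these genes were followed in a list of 19 other genes of the IGF axis, of which 15 were tested. Beyond these kinds the list also held Igfbp1, Igfals, Prg2, Igf2bp1, Igf2bp2, and Igf2bp3, and its counts and medians include those that were tested. Igf2, Irs1, and Grb14 were lower past the threshold after treatment, 3 of 15 where 5.84% of all genes were. By edgeR, 0 were higher past the threshold, as also by DESeq2 and limma-voom, and 5 were higher at an unadjusted p under 0.05. At an adjusted p under 0.01 with any fold, 7 were lower and 4 higher, where 32.0% and 32.9% of all genes were. This list and those that follow were chosen with earlier results of these data known. Their p-values are therefore descriptions and not independent tests. Igf2 fell from 6.07 ± 0.930 CPM (424, 359, and 144 counts) to 0.165 ± 0.0885 CPM (9, 6, and 3 counts), by 5.21 on the log2 scale (standard error 0.23, adjusted p = 8.12e-12, edgeR). Igf1, at 35.5 ± 1.26 CPM in the controls and 18.1 ± 1.87 CPM after treatment, fell short of the fold threshold (log2 fold change -0.98, adjusted p = 1.84e-09, edgeR).

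None of the receptors Igf1r, Insr, and Igf2r passed the fold threshold. Igf1r was at 114 ± 17.5 CPM in the controls and 105 ± 6.80 CPM after treatment (adjusted p = 0.213, edgeR). Insr, the insulin receptor, was at 45.8 ± 7.46 and 58.6 ± 1.71 CPM, a log2 difference of 0.36 (adjusted p = 0.00138, edgeR). Igf2r, which takes up IGF2 for breakdown, was at 204 ± 51.7 and 447 ± 46.0 CPM, a log2 fold change of 1.13 (adjusted p = 1.22e-06, edgeR). All 3 receptors had their lowest control value in replicate 2. Irs1, the docking protein behind the insulin and IGF1 receptors, fell from 559.9 ± 72.8 to 125 ± 4.36 CPM (log2 difference -2.17, adjusted p = 3.69e-13, edgeR). Grb14, an adapter that restrains the insulin receptor, fell from 22.6 ± 1.86 to 4.92 ± 0.555 CPM (log2 difference -2.19, adjusted p = 1.34e-11, edgeR). With scaling by library size only, 1 of the 15 was lower. The median log2 fold change of the 14 genes above 3 counts was -0.33, against 0.01 for all genes.

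Proteins that carry an IGFBP-like domain were followed in a list of 13 genes, of which 12 were tested. Ccn1, Ccn3, and Ccn4 passed the threshold as lower, and 0 genes as higher by edgeR, DESeq2, or limma-voom, with 2 higher at an unadjusted p under 0.05. Of all genes, 5.84% were lower and 3.81% higher. At an adjusted p under 0.01 with any fold, 6 of the 12 were lower and 2 higher, where 32.0% and 32.9% of all genes were. These are matricellular proteins of the CCN family. Ccn3 fell from 88.8 ± 6.47 to 1.86 ± 0.159 CPM (log2 fold change -5.57, adjusted p = 1.66e-17, edgeR), and was at 8.27 ± 0.280 CPM in ECs. Ccn1 and Ccn4 had log2 fold changes of -2.73 and -2.72 (adjusted p = 2.91e-16 and 1.31e-16, edgeR), and in ECs Ccn1 was at 1769 ± 14.5 CPM, above both osteoblast groups. The median of the 11 genes above 3 counts was -0.86.

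Of 13 further proteases known to cut binding proteins, 9 were tested, and 0 passed the threshold in either direction by edgeR, DESeq2, or limma-voom. Of all genes, 5.84% were lower and 3.81% higher. At an unadjusted p under 0.05, 4 were lower and 4 were higher, and so they were at an adjusted p under 0.01 with any fold, where 32.0% and 32.9% of all genes were. Of the 8 with more than 3 counts in some osteoblast library, Adamts1 had the lowest log2 value, -1.75, at 211 ± 11.9 CPM in the controls and 62.6 ± 3.78 CPM after treatment. Ctsd, the lysosomal protease cathepsin D, had the highest, 1.54, at 209 ± 9.18 and 606 ± 26.9 CPM. Mmp2, the most abundant of them in the osteoblasts, was at 1475 ± 50.9 and 2475 ± 75.9 CPM, 0.75 apart on the log2 scale. The median of these 8 genes was -0.15.

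**Figure D4:**
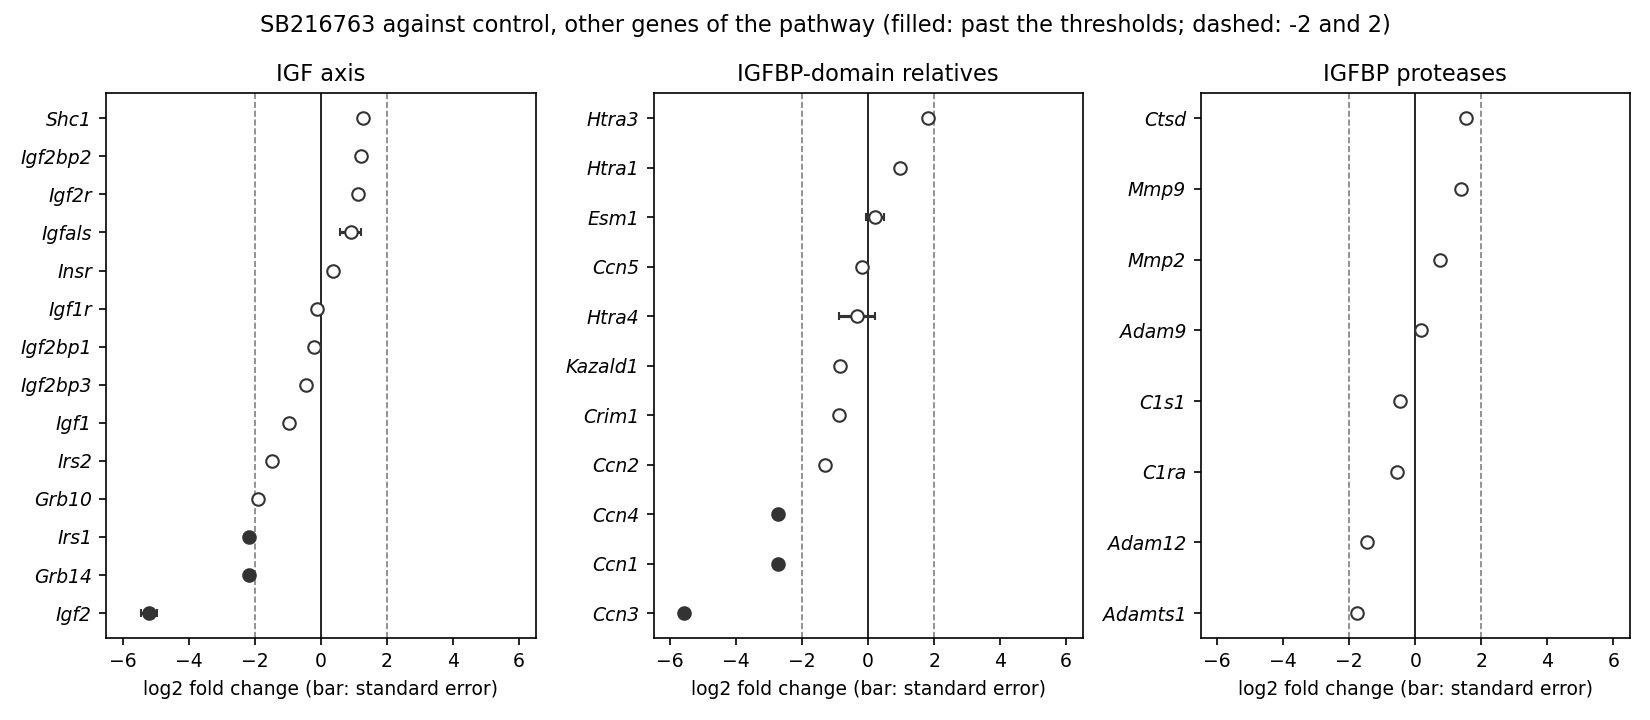
Log2 fold changes with standard errors between SB216763-treated and control osteoblasts for the tested genes of the 3 other lists, with dashed lines at -2 and 2 and filled points past the thresholds. Genes with at most 3 counts in every osteoblast library are left out. Igf2 and Ccn3 lie farthest left (-5.21 and -5.57), and no filled point lies on the right or among the proteases.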

How the data were processed

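RNA-Seq libraries of control MC3T3-E1 osteoblasts, SB216763-treated MC3T3-E1 osteoblasts, and pulmonary ECs (n = 3 each) were analyzed. The authors deposited raw read counts per gene without normalization, and the submitters' processing notes name STAR 2.5.3a and build GRCm38. Annotation and strand setting are not given in the sources used here. Groups came from the sample titles. Symbols were found for 50376 of 50686 Ensembl identifiers. Lengths and coordinates came from GENCODE M21.

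In R 4.3.3, edgeR 4.0.16 was used with filterByExpr, TMM, and a quasi-likelihood fit of all 9 libraries, and p-values were adjusted by Benjamini-Hochberg over all 15531 genes. Log2 fold changes used a prior count of 0.125, log2 CPM a prior count of 2. Standard errors are the absolute log2 fold change divided by the square root of the F statistic of its test. For genes at a few counts they understate counting error. Per-kb levels used the union of exons. Ratios of pooled counts have exact conditional 95% intervals. DESeq2 1.42.0, limma 3.58.1, other scalings, filters, a block, and leaving out libraries were alternatives, and the tests were tried on simulated data. The genes and lists were chosen with earlier results of these data known. Named were the 10 genes, markers, ligands and receptors, list genes past the threshold, and the 3 nearest patterns. Other genes named (neighbors, Adamts1, Ctsd, Mmp2) were chosen after their values were seen.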

Additional observations from a re-analysis of the deposited data

How the results depend on the processing

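Across the members' log2 fold changes, 569 of 577 alternative values kept their direction and their side of the threshold, 5 no longer passed, 3 newly passed, and 0 reversed. Many of these values could hardly change. Some fits left out a library outside the comparison, and some genes lay far from the threshold, so the total does not measure robustness. No fold was taken for Stc2 between treated and control osteoblasts. With a fold threshold of 1 on the log2 scale, 2 members were higher after treatment, as were 3 genes of the IGF axis and 1 with an IGFBP-like domain, 5 of the IGF axis were lower, and 2 further proteases were lower and 2 higher. With scaling by library size only, which moved the median of all genes to 0.22 between treated and control cells, 1 gene of the IGF axis was lower and 1 with an IGFBP-like domain was higher. The binding protein sum was then 251 CPM per kb in the controls and 546 after treatment, and with the longest transcript as length 304, 576, and 383 CPM per kb in controls, treated cells, and ECs. With each library left out it ranged from 266 to 274, from 502 to 524, and from 325 to 328. With a prior count of 2, Igfbp2 between ECs and treated cells was -1.94 and no longer passed.

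Same-numbered libraries of control and treated cells had deviations correlated at 0.00286, 0.123, and 0.0810, so the numbers were not taken as pairs. With the replicate block, 3 members were lower and 1 higher after treatment, 6 lower and 3 higher in ECs against controls, and 4 lower and 3 higher in ECs against treated cells, which changed no call. Depth limits Igfbp2, Igfbp3, Pappa, Stc1, and Stc2, at a few counts in some groups. With only the 2 groups compared, Igfbp2 was filtered out of ECs against treated cells, and Igfbp3 and Stc1 out of treated against control cells.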
